A study of Rattus norvegicus with 18 samples.

Results

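Peroxisome proliferator-activated receptor alpha (PPAR alpha) is a nuclear receptor of the hepatocyte that is activated by fatty acids and binds DNA together with a retinoid X receptor. In the fasted liver it turns on genes for fatty acid oxidation in peroxisomes, microsomes and mitochondria, and for the making of ketone bodies from the acetyl-CoA that this oxidation yields. The genes described here are known targets of the receptor. They were chosen by symbol, as Cyp4a1, Cyp4a2, Cyp4a3, Acot1, Ehhadh, Pdk4, Vnn1 and Fgf21. Of these 8 symbols, 7 had a row among the 32623 genes of the files. No row carried the symbol Cyp4a3, and 2 rows carried the symbol Cyp4a2, so 8 rows were found. Whether either Cyp4a2 row is the gene now called Cyp4a3 could not be settled. These rows are named here by the symbol they carry, and Cyp4a3 is not analysed under its own symbol.

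Liver RNA was sequenced from 18 male Wistar rats in 3 groups of 6. Control rats were kept for 12 weeks on chow and plain water. NASH rats inhaled carbon tetrachloride (CCl4), a hepatotoxin, and drank phenobarbital for 6 weeks, and then ate a high-fat, high-cholesterol diet for 4 weeks, which makes a 10-week model of non-alcoholic steatohepatitis. NASH-CH rats received CCl4 and phenobarbital for 24 weeks, with the diet during the last 16, as a model of steatohepatitis with cirrhosis. The sample labels give the 10 and 24 weeks as CCl4 and diet combined and do not mention phenobarbital, the groups differed in age at collection by protocol, and the hour of tissue collection was not given in the sources used here. Toxin, phenobarbital, diet, duration and age therefore cannot be told apart in any comparison, nor can any difference in the hour of collection.

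Depth, as total expected counts per rat, ranged from 19498534 to 29491947 in control and NASH rats. In NASH-CH rats it ranged from 44680344 to 60117822, with no overlap, so depth goes with the group in every comparison of NASH-CH rats. The tissue carried its label: all 8 hepatocyte markers examined were present, and their summed level ranged from 136800 to 195700 counts per 1000000 (CPM) in control, 98670 to 159600 in NASH and 91690 to 149600 in NASH-CH rats. Of the other cell types, the summed markers of stellate cells and myofibroblasts had medians of 261 in control, 218 in NASH and 350 CPM in NASH-CH. Those of macrophages had medians of 253, 197 and 187 CPM. In NASH-CH rats against control, 4 of 7 macrophage and 3 of 8 hepatocyte markers were lower at a limma-voom adjusted p under 0.05, and none was higher. Of 7 stellate cell and myofibroblast markers tested, 2 were higher and none was lower. Beside these, 8.38% of all genes were higher and 8.6% lower. The part of these markers in the results was not tested. NASH-CH rat 5 stood apart with 41.3 CPM of cholangiocyte markers, against 6.29 to 17.0 CPM in the other NASH-CH rats. In whole liver, fewer cells of a type and less RNA per cell cannot be told apart.

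The promoters were taken from RefSeq on the GRCr8 build and matched by symbol for 6 of the 8 genes. They show first how alike the Cyp4a copies are upstream of the start, and second how Fgf21 differs from them. Each stretch lies upstream of the start of the gene and runs 5′ to 3′ on the minus strand. In the first 3, the capitals mark the nuclear receptor half-site AGGTCA. In Fgf21, they mark TTGCATCA, the core of a C/EBP-ATF element through which amino acid stress acts on this kind of gene, and the TATA box TATAAA. Cyp4a2 lies at chr5:134170948-134171073, its copy Cyp4a2l1 at chr5:134257830-134257955, Cyp4a3 at chr5:134352276-134352401 and Fgf21 at chr1:105221397-105221546.
Cyp4a2: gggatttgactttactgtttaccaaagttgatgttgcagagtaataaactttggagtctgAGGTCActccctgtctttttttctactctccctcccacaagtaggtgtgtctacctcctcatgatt
Cyp4a2l1: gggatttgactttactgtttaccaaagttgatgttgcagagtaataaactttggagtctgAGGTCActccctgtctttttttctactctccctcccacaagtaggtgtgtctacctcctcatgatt
Cyp4a3: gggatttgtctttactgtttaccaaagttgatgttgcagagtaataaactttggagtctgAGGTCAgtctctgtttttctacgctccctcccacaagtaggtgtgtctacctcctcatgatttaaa
Fgf21: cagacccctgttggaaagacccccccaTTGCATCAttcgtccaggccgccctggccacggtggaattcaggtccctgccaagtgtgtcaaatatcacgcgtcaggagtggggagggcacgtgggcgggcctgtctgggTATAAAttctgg

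Over these 126 bases Cyp4a2 and Cyp4a2l1 were 100% identical, and Cyp4a2 and Cyp4a3 were 90.8% identical over 130 aligned positions. RefSeq places 5 Cyp4a genes and 3 pseudogenes side by side on chromosome 5, and the files, made on the older Rnor_6.0 build, name only Cyp4a1, Cyp4a2 and Cyp4a8 of them. The compared bases lie before the start and yield no reads, and the transcripts of the copies were not compared. Reads that match more than 1 copy are shared out by estimation, so the level of each Cyp4a2 row is uncertain. Motifs were searched on both strands of the 300-base promoters, from 250 bases before to 50 after the start. AGGTCA began 105 bases before the start in Cyp4a2 and Cyp4a3, and 16.2% of all 33469 promoters held it. The full direct repeat AGGTCANAGGTCA was in none of the 6 promoters of the genes named and in 0.0538% of all promoters. TTGCATCA began 143 bases before the Fgf21 start and TATAAA 32 bases before it, and they were present in 0.795% and 14.2% of all promoters. These matches describe letters in a window and not sites of binding.

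The comparison of NASH and of NASH-CH rats with controls asks whether the receptor's targets were higher or lower in the diseased liver. Of the 8 rows, 7 had enough counts to be tested. In limma-voom, with p-values adjusted by Benjamini-Hochberg over 12904 genes, none of the 7 rows passed 0.05 in NASH rats, where 1.58% of all genes were higher and 1.54% were lower. Only Fgf21 had an unadjusted p under 0.05 in that comparison. In NASH-CH rats 1 of the 7 rows passed and was lower, Fgf21, beside 8.38% of all genes higher and 8.6% lower. Between NASH-CH and NASH rats none passed and none had an unadjusted p under 0.05, where 1.81% of all genes were higher and 2.39% lower. The median log2 fold change of the 7 rows was -0.01 in NASH and -0.35 in NASH-CH rats against control, beside 0.01 over all genes in both. Both comparisons share the control rats. Of all genes that passed, 50.6% were higher in NASH and 49.4% in NASH-CH rats. With library size as the sole scaling these became 90.8% and 85.1%, and with no filter on low counts 27.8% in NASH-CH rats.

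**Figure D1:**
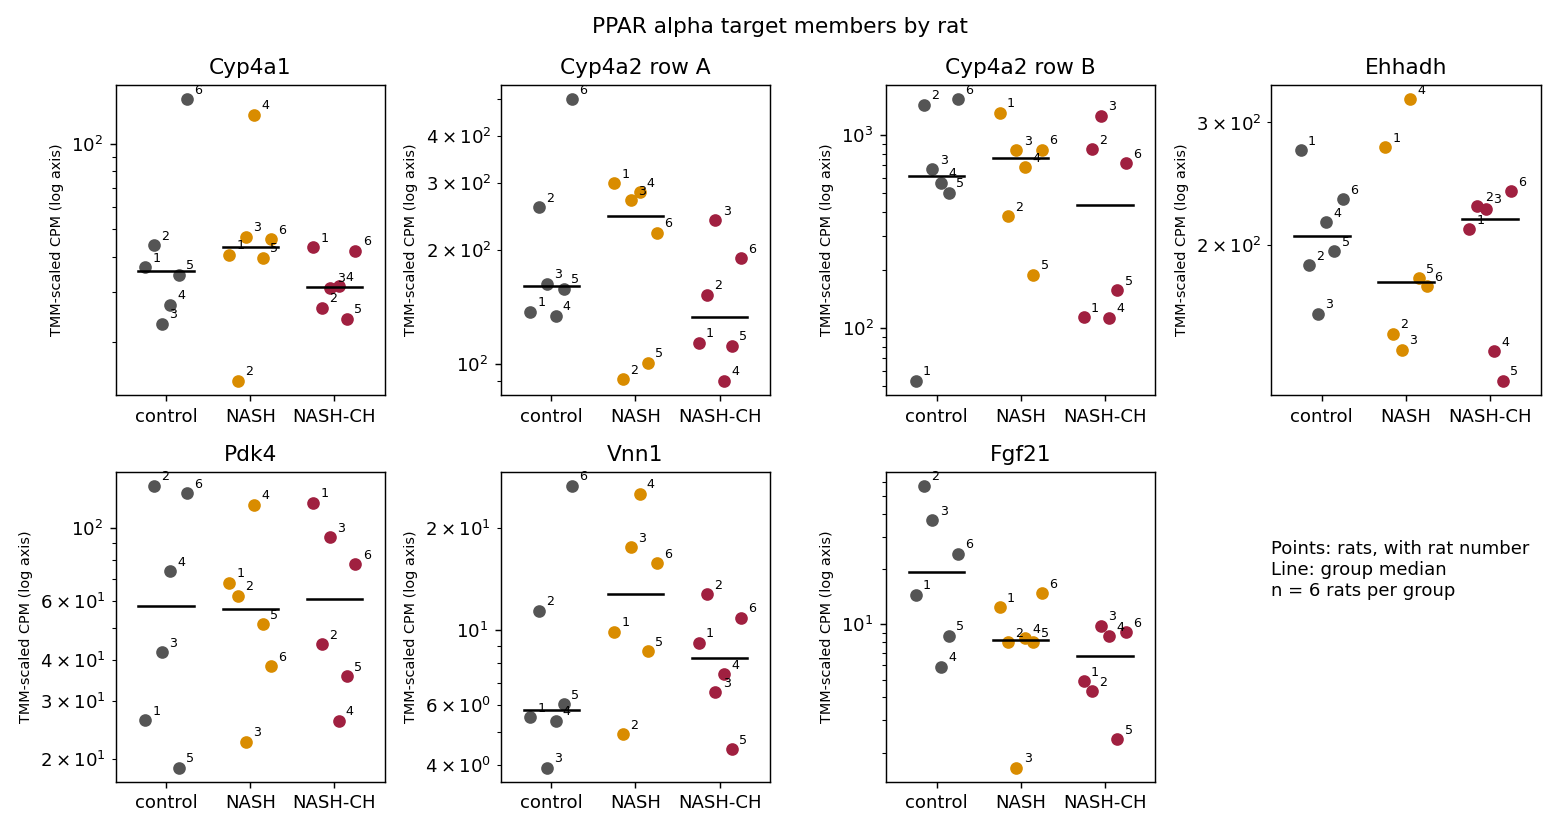
Level of each tested row in each rat, as TMM-scaled CPM on a log axis, for 6 control, 6 NASH and 6 NASH-CH rats. Points carry the rat number and lines are group medians. Control rat 6 and NASH rat 4 are the highest points for Cyp4a1 (143 and 126 CPM) and Vnn1 (26.6 and 25.2 CPM), and the groups overlap in every panel.

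The Cyp4a enzymes are microsomal cytochromes P450 that hydroxylate fatty acids at the far end of the chain, the first step of omega-oxidation. Cyp4a1 had a lowest, median and highest level of 23.3, 35.7 and 143 CPM in control rats, 14.7, 43.3 and 126 CPM in NASH rats and 24.2, 31.3 and 43.1 CPM in NASH-CH rats. All CPM values are after TMM scaling, which evens out differences in library composition. The groups overlapped throughout. The wide range in control rats was set by control rat 6, and that in NASH rats by NASH rat 4 and by NASH rat 2, the lowest of the series. After control rat 6 and NASH rat 4, the next highest rat of the series had 47.0 CPM. The log2 fold change was 0.07 in NASH (95% interval -0.82 to 0.95, limma-voom adjusted p = 0.949) and -0.35 in NASH-CH rats (-1.25 to 0.56, adjusted p = 0.615). Both intervals span 0. Without control rat 6 the NASH-CH value was 0.00.

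Of the 2 rows for Cyp4a2, row A (ENSRNOG00000009741) ranged from 134 to 500 CPM in control, 91.0 to 300.1 CPM in NASH and 90.1 to 239.7 CPM in NASH-CH rats, with medians of 160, 246 and 133 CPM. Row B (ENSRNOG00000030154) ranged from 53.4 to 1540 CPM in control, 189 to 1311 CPM in NASH and 114 to 1266 CPM in NASH-CH rats, with medians of 619, 760 and 437 CPM. Control rat 6 was the highest of all rats in both rows, and control rat 1 was the lowest in row B. The groups overlapped in both. In NASH-CH rats the log2 fold change was -0.47 for row A (-1.25 to 0.30, limma-voom adjusted p = 0.398) and -0.59 for row B (-2.24 to 1.06, adjusted p = 0.642). In NASH rats it was -0.04 (-0.79 to 0.71) and 0.22 (-1.41 to 1.86). The 2 rows added together gave 0.03 in NASH and -0.62 in NASH-CH rats, the latter with an adjusted p of 0.507, an alternative chosen after seeing the data.

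The share of reads between the 2 Cyp4a2 rows was not fixed. Row B held 0.389 times the expected counts of row A in control rat 1 and 5.57 times in NASH-CH rat 2. NASH-CH rats 1, 4 and 5 had ratios of 1.00, 1.26 and 1.41, while NASH-CH rats 2, 3 and 6 had 5.57, 5.28 and 3.77. The other 5 control rats lay between 3.08 and 5.55, and the NASH rats between 1.88 and 4.37. NASH-CH rats therefore fell into low and high ratios with no rat between 1.41 and 3.77. The lowest expected count was 857 in row B and 2125 in row A. These counts include reads shared out by estimation, so how many reads were particular to either row is not known. The cause of this spread was not tested.

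Ehhadh is the bifunctional enzyme of peroxisomal beta-oxidation, which hydrates and then dehydrogenates the chain. It was the steadiest of the 7 rows, with a lowest, median and highest level of 159, 205 and 274 CPM in control, 141, 176 and 324 CPM in NASH and 127, 218 and 239 CPM in NASH-CH rats. All 3 groups overlapped. The log2 fold change was -0.07 in NASH (-0.51 to 0.37, limma-voom adjusted p = 0.881) and -0.13 in NASH-CH rats (-0.59 to 0.33, adjusted p = 0.721). This interval was the narrowest among the 7 rows in both comparisons.

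Pdk4 is the pyruvate dehydrogenase kinase that spares glucose carbon when fat is burned. Its level spanned 18.8 to 134 CPM in control, 22.6 to 118 CPM in NASH and 26.1 to 119 CPM in NASH-CH rats, around medians of 58.1, 56.8 and 61.2 CPM. The groups lay over one another, and the rats within each differed far more than the medians. The log2 fold change was -0.01 in NASH (-1.05 to 1.03, limma-voom adjusted p = 0.994) and 0.10 in NASH-CH rats (-0.99 to 1.19, adjusted p = 0.913).

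Vnn1 is pantetheinase, which cleaves pantetheine, a breakdown product of coenzyme A, to pantothenate and cysteamine. It had a lowest, median and highest level of 3.94, 5.8 and 26.6 CPM in control, 4.93, 12.8 and 25.2 CPM in NASH and 4.45, 8.28 and 12.7 CPM in NASH-CH rats. NASH rats 3, 4 and 6 were above every control rat but rat 6, yet the groups overlapped. The log2 fold change was 0.57 in NASH (-0.36 to 1.49, limma-voom adjusted p = 0.491), -0.02 in NASH-CH rats (-0.93 to 0.89, adjusted p = 0.979) and -0.59 between NASH-CH and NASH rats (adjusted p = 0.488). Without control rat 6 the first value was 0.95 with an adjusted p of 0.154, and the second was 0.37.

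Acot1, the cytosolic acyl-CoA thioesterase that frees fatty acids from coenzyme A, was too low to test. Its expected count was 0 in 5 of 6 control, 3 of 6 NASH and 2 of 6 NASH-CH rats. The highest counts of each group were 4.81 in control rat 6, 11.1 in NASH rat 4 and 2.52 in NASH-CH rat 3. A count of 0 allows up to 3 counts, or 0.0499 to 0.154 CPM at these depths, counting error only. Acot1 has a close mitochondrial paralog, Acot2, so that the sharing of reads between them is uncertain. For a level this low no difference between groups was detectable.

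Fgf21 is a hormone secreted by the liver that acts through beta-Klotho and fibroblast growth factor receptors. The 6 control rats had 14.5, 57.0, 37.1, 5.87, 8.68 and 24.2 CPM, in the order of their numbers. NASH rats had 12.4, 7.97, 1.66, 8.39, 8.01 and 14.8 CPM, and NASH-CH rats had 4.90, 4.33, 9.82, 8.60, 2.36 and 9.04 CPM. All 6 NASH-CH rats were below the control median of 19.4 CPM, and 3 of them were below every control rat, while the ranges still overlapped because of control rats 4 and 5.

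From a mean of 24.6 CPM in control, Fgf21 fell to 6.51 CPM in NASH-CH rats, or 0.311 times the control level on the fitted scale (95% interval 0.14 to 0.691). The log2 fold change was -1.69 ± 0.55 (SE, n = 6 per group, limma-voom adjusted p = 0.0418). In NASH rats the mean was 8.88 CPM, and the log2 fold change of -1.31 ± 0.58 did not pass (adjusted p = 0.196). NASH-CH and NASH rats differed by -0.37 (-1.60 to 0.85, adjusted p = 0.802). The call in NASH-CH rats lay at the threshold: it was lost in 9 of 18 fits that left out 1 rat each, those without control rats 1, 2, 3 or 6, NASH rats 2 or 5, or NASH-CH rats 1, 2 or 5, with log2 fold changes from -2.03 to -1.35 and adjusted p from 0.0184 to 0.0914 over all 18. The edgeR quasi-likelihood test gave -1.92 (adjusted p = 0.0161) and DESeq2 gave -1.92 (adjusted p = 0.0043), and with a replicate block the limma-voom value was -1.70 (adjusted p = 0.0537).

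**Figure D2:**
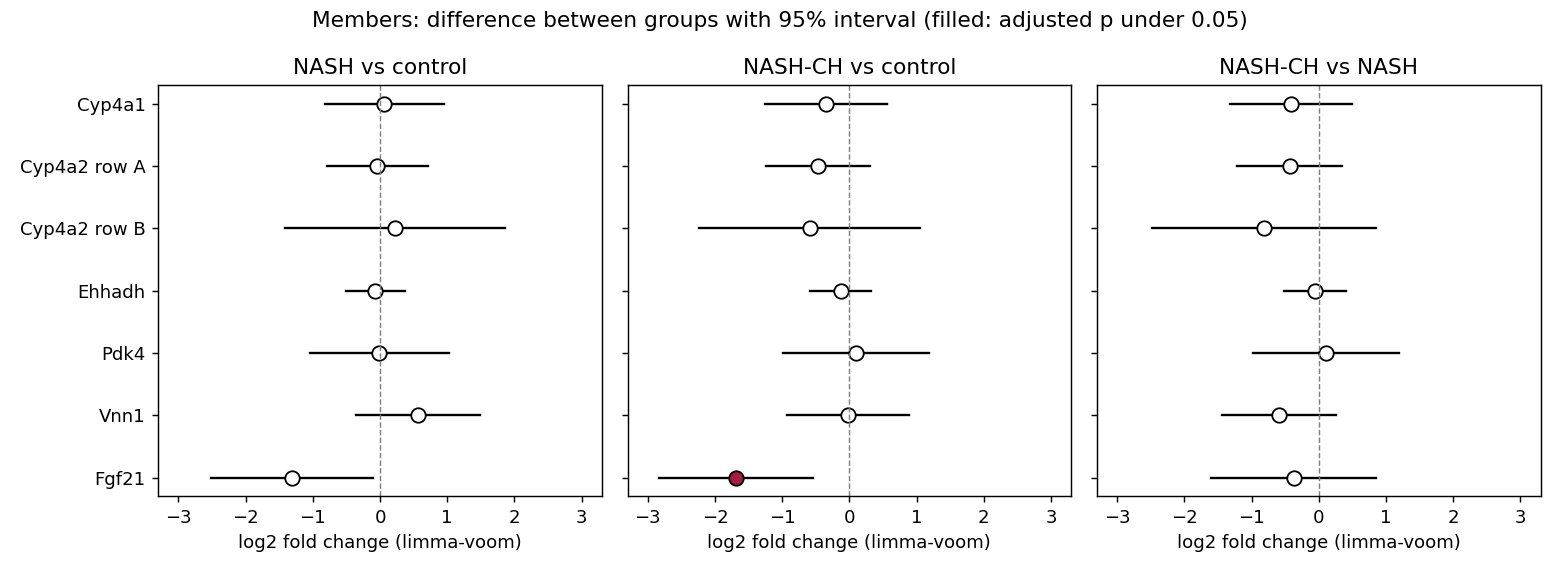
Log2 fold change of each tested row between groups from limma-voom, with its 95% interval, for NASH against control, NASH-CH against control and NASH-CH against NASH. Filled points passed an adjusted p of 0.05. Fgf21 in NASH-CH rats against control (-1.69) is the single filled point, and Ehhadh has the shortest intervals.

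The genes through which Fgf21 is sensed and induced were read as a list of their own. Of 8 listed, among them the coreceptor Klb, the stress factors Atf4 and Ddit3 and the carbohydrate-responsive factor Mlxipl, none passed in any of the 3 comparisons, and their median log2 fold change was -0.02 in NASH and -0.08 in NASH-CH rats. Of all genes, 1.58% were higher and 1.54% lower in NASH rats, and 8.38% and 8.6% in NASH-CH rats. Between NASH-CH and NASH rats the shares were 1.81% and 2.39%. With so few genes, 0 of 8 does not show that they were unchanged.

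The rats of a group differed more in these genes than in most. The within-group SD of log2 CPM ranged from 0.396 for Ehhadh to 1.49 for Cyp4a2 row B, which is the 70.1st to the 98.7th percentile of the genes tested, against a median SD of 0.288. The standard errors were accordingly wide, with a median of 0.433 for the 7 rows and 0.166 for all genes in NASH-CH against control.

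Control rat 6 was the highest control rat in 4 of the 7 rows, and NASH rat 4 was the highest NASH rat in 4. Over the 111 other pathway genes tested, control rat 6 led its group in 38 (34.2%), beside 19.9% of all genes, and NASH rat 4 led in 30 (27.0%), beside 21.8% of all genes. Control rat 1 and NASH rat 1 also led often, in 32 and 29 pathway genes, and NASH-CH rat 1 led its group in 41 (36.9%), beside 15.1% of all genes. Angptl4, another target of the receptor, did not follow the pattern. It was at 48.9 CPM in control rat 6, within the 32.1 to 130 CPM of the other controls, and at 32.8 CPM in NASH rat 4, within 17.2 to 91.8 CPM of the other NASH rats.

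The mitochondrial beta-oxidation enzyme Eci1, an enoyl-CoA isomerase, was the gene most like Cyp4a1 over the 18 rats. After subtracting group means, log2 CPM of Cyp4a1 and Eci1 had a Pearson r of 0.93, and Cyp4a1 and Ech1, a dienoyl-CoA isomerase, had 0.92, out of 7282 genes searched. Eci1 was at 212 CPM in control rat 6 and 197 CPM in NASH rat 4, against 38.0 to 48.3 CPM in the other control, 36.0 to 100.5 CPM in the other NASH and 18.7 to 46.6 CPM in the NASH-CH rats. Ech1 and Eci1 were also the genes most like Vnn1 (r of 0.90 and 0.88). Crat, the carnitine acetyltransferase, was among the pair most like Cyp4a2 row A (r = 0.86), after Eml3 (0.90). Without the 2 rats farthest from the median of the member, r was 0.81 for Cyp4a1 with Eci1 and 0.76 for Cyp4a2 row A with Crat.

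The other members had other neighbours. Pdk4 was most like Arid5a (0.87) and Ets2 (0.85), Fgf21 was most like Epha2 (0.86) and Rnf39 (0.83), Ehhadh was most like Ptov1 (0.83) and Acad11 (0.78), and Cyp4a2 row B was most like Fbxo42 (0.78) and Slc6a9 (0.76). These are the highest of 7282 values each, given as a description.

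Of the 21 pairs of tested rows, 4 were correlated over the 18 rats with an adjusted p under 0.05 in a permutation test. Cyp4a1 and Vnn1 had a Pearson r of 0.89 (permutation p = 0.0001, adjusted p = 0.0021) and a Spearman rho of 0.82 (permutation p = 0.00035, adjusted p = 0.00368). The Pearson r was 0.78 without control rat 6 and NASH rat 4, the rats farthest from the median of Cyp4a1. Cyp4a2 row A was correlated with Cyp4a1 (r = 0.71, rho = 0.63, permutation p = 0.00328 and 0.00875, adjusted p = 0.0172 and 0.0459) and with Vnn1 (r = 0.76, rho = 0.68, permutation p = 0.00166 and 0.00409, adjusted p = 0.0116 and 0.0286), and r was 0.56 and 0.58 without the 2 farthest rats. The 2 Cyp4a2 rows had r = 0.75 and rho = 0.83 (permutation p = 0.00081 and 4e-05, adjusted p = 0.0085 and 0.00084), and they can share reads. Fgf21 was in none of the 4 pairs; its r with the other rows ran from 0.14 to 0.46.

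**Figure D3:**
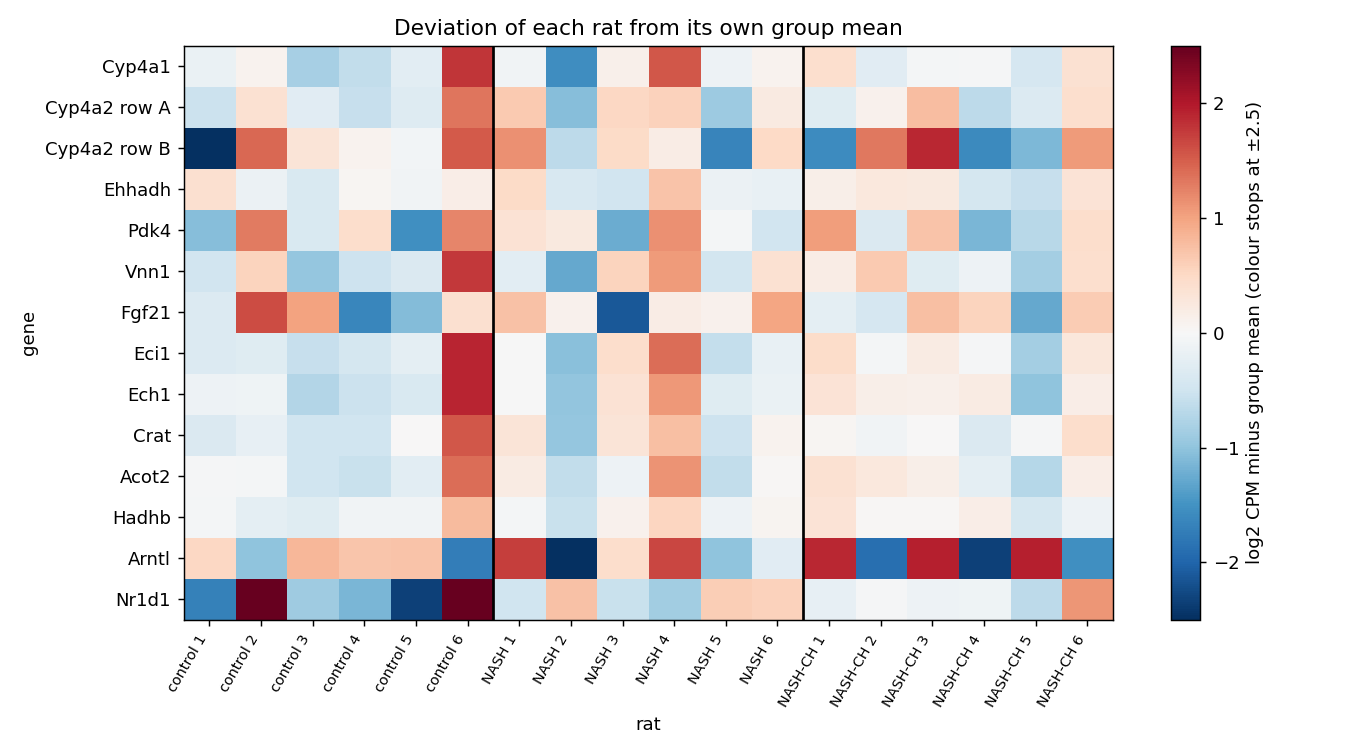
Deviation of each rat from the mean of its own group, in log2 CPM, for the 7 tested rows, for 5 other fatty acid metabolism genes, chosen after their values were seen, and for the clock genes Arntl and Nr1d1. Colour stops at ±2.5, and black lines part the groups of 6. Control rat 6 and NASH rat 4 are above their group mean in all 7 tested rows and in Eci1, Ech1, Crat, Acot2 and Hadhb, and they lie on opposite sides for Arntl (-1.74 and 1.66).

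The clock genes also varied between rats. Arntl, a core activator of the circadian clock, was at or above 23.9 CPM in 9 rats and at or below 10.6 CPM in the other 9, and the high rats were 4 control, 2 NASH and 3 NASH-CH rats. Control rat 6 was low for Arntl (5.38 CPM) and the highest of the controls for its repressor Nr1d1 (56.3 CPM), while NASH rat 4 was high for Arntl (24.7 CPM). The deviations of the 7 rows from their group means had a Pearson r with those of Arntl between -0.25 and 0.25 over the 18 rats. Without NASH rat 2 and NASH-CH rat 4, the rats farthest from the median of Arntl, it was -0.50 for Vnn1 and between -0.27 and 0.02 for the other 6 rows. With log2 Arntl as a covariate, chosen after seeing the data, Fgf21 in NASH-CH rats was at -1.96 (limma-voom adjusted p = 0.0346). Nr1d1 did not follow Arntl alike in all groups. Control rats 1, 3, 4 and 5, high for Arntl, had 0.942 to 2.68 CPM of Nr1d1. Its lowest level was 15.4 CPM in NASH and 13.9 CPM in NASH-CH rats, though it did not pass in either model. The Arntl covariate therefore does not stand for the whole clock, whose part was not tested.

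The wider pathway was read from 11 lists with 120 symbols, of which 111 were tested. In NASH rats 2 rose and 2 fell, or 1.80% each way, beside 1.58% and 1.54% of all genes. In NASH-CH rats 10 rose (9.01%) and 13 fell (11.7%), with a median log2 fold change of -0.18 beside 0.01 over all genes. Of all genes, 8.38% were higher and 8.6% lower in that comparison, so that the shares of the pathway were near the background. Between NASH-CH and NASH rats none of the 111 rose and 3 fell (2.70%). Of all genes, 1.81% were higher and 2.39% lower there, so that the share that fell was near the background. With library size as the sole scaling, the calls for Eci2 in NASH (-0.24) and for Slc16a1, Mgll, Pecr, Cyp4v3 and Gk in NASH-CH rats (-0.39, -0.41, -0.26, -0.39 and -0.41) were lost, with limma-voom adjusted p from 0.0507 to 0.133.

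The receptor itself rose. Ppara had 13.96, 20.6 and 32.5 CPM as its lowest, median and highest level in control, 28.3, 41.2 and 48.3 CPM in NASH and 19.3, 41.7 and 49.6 CPM in NASH-CH rats. In each model 5 of 6 rats lay above the highest control rat, and the ranges overlapped. The log2 fold change was 0.91 ± 0.22 in NASH (limma-voom adjusted p = 0.0309) and 0.88 ± 0.23 in NASH-CH rats (adjusted p = 0.0132). The call in NASH rats was lost in 9 of 18 fits without 1 rat each, those without control rats 1, 3, 4 or 5 or NASH rats 1, 2, 3, 4 or 5, where the log2 fold change stayed between 0.81 and 0.96 and the adjusted p reached 0.077. Its partner Rxra was at 0.22 in both (adjusted p = 0.465 and 0.395). In NASH-CH rats 4 of 13 genes of the receptor and its partners rose and none fell, beside 8.38% of all genes higher and 8.6% lower. Among the 4 was Med1, a subunit of the Mediator complex (0.44, adjusted p = 0.0118). Rxra in NASH-CH rats passed in 1 of 18 fits without 1 rat each, that without NASH-CH rat 5 (0.42, limma-voom adjusted p = 0.0101). Over all 18 its log2 fold change ran from 0.12 to 0.42, with adjusted p up to 0.663.

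Of 12 tested genes of omega-hydroxylation and fatty aldehyde oxidation, 2 rose and 3 fell in NASH-CH rats, where 8.38% of all genes were higher and 8.6% lower. Cyp4a8, the neighbour of the Cyp4a members, rose from a mean of 7.56 to 20.2 CPM (log2 fold change 1.95 ± 0.57, limma-voom adjusted p = 0.0253). Its call was lost in edgeR (1.44, adjusted p = 0.0715) and in DESeq2 (1.41, adjusted p = 0.0604), and without control rats 2 or 4 or NASH-CH rat 6 (1.73, 1.5 and 1.81). Cyp4f6 and Cyp4v3, fatty acid hydroxylases of sister families, fell by 0.67 and 0.65 on the log2 scale (adjusted p = 0.0114 and 0.016). In NASH rats none of the 12 passed.

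Of 18 genes of peroxisomal beta-oxidation and import, 2 fell in NASH-CH rats (11.1%) and none rose, which is near the 8.6% of all genes that were lower. Eci2, which shifts double bonds for the oxidation of unsaturated fatty acids, went from a mean of 257 CPM in control to 186 CPM in NASH and 174 CPM in NASH-CH rats. It fell by 0.47 (limma-voom adjusted p = 0.0258) and by 0.57 on the log2 scale (adjusted p = 0.00208). The NASH call was lost without control rats 1, 4 or 5 or NASH rats 3 or 5, with adjusted p up to 0.0696. Pecr, a trans-2-enoyl-CoA reductase, fell by 0.52 in NASH-CH rats (adjusted p = 0.00885).

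Of 15 mitochondrial targets, 1 rose and 1 fell in NASH-CH rats, which is near the background of 8.38% and 8.6%, and none passed in NASH rats. Cpt1a, which controls entry of long-chain fatty acids into mitochondria, had medians of 89.1 CPM in control, 209.5 CPM in NASH and 215 CPM in NASH-CH rats. Control rat 6 alone stood at 333 CPM, the highest of all 18, and the other controls ran from 66.1 to 158 CPM. With all rats the log2 fold change was 1.02 (0.24 to 1.81, limma-voom adjusted p = 0.125) in NASH and 0.70 (-0.11 to 1.51, adjusted p = 0.222) in NASH-CH rats. Without control rat 6 it was 1.33 (adjusted p = 0.0162) and 1.00 (adjusted p = 0.0334).

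For ketone bodies, 1 of 7 genes of synthesis and export rose and 1 fell in NASH-CH rats, beside 8.38% and 8.6% of all genes. Among the monocarboxylate transporters, Slc16a7 rose in both models, by 0.79 after 10 weeks (limma-voom adjusted p = 0.0104) and by 0.49 after 24 (adjusted p = 0.0303), Slc16a1 fell by 0.65 in NASH-CH rats (adjusted p = 0.00692), and Slc16a6 did not pass in any comparison. Oxct1, which consumes ketone bodies and is low in hepatocytes, rose by 0.78 in NASH-CH rats (adjusted p = 0.036), named as the single gene of its list.

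Of 13 lipid handling targets tested, 1 rose and 5 fell in NASH-CH rats, where 8.38% of all genes were higher and 8.6% lower, and 1 fell in NASH rats, where 1.54% of all genes were lower. Me1, the malic enzyme that supplies NADPH, fell by 1.60 in NASH (limma-voom adjusted p = 0.011) and by 1.10 in NASH-CH rats (adjusted p = 0.014), from a control mean of 28.7 CPM to 9.01 and 12.5 CPM. Fabp1, the liver fatty acid binding protein, fell by 0.92 in NASH-CH rats (adjusted p = 0.023), with NASH-CH rat 5 lowest at 334 CPM against a control range of 1585 to 2121 CPM. The lipase Mgll and the glycerol kinase Gk fell by 0.66 each (adjusted p = 0.00791 and 0.0243). Without NASH-CH rat 5 Fabp1 fell by 0.62 (adjusted p = 0.00638).

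**Figure D4:**
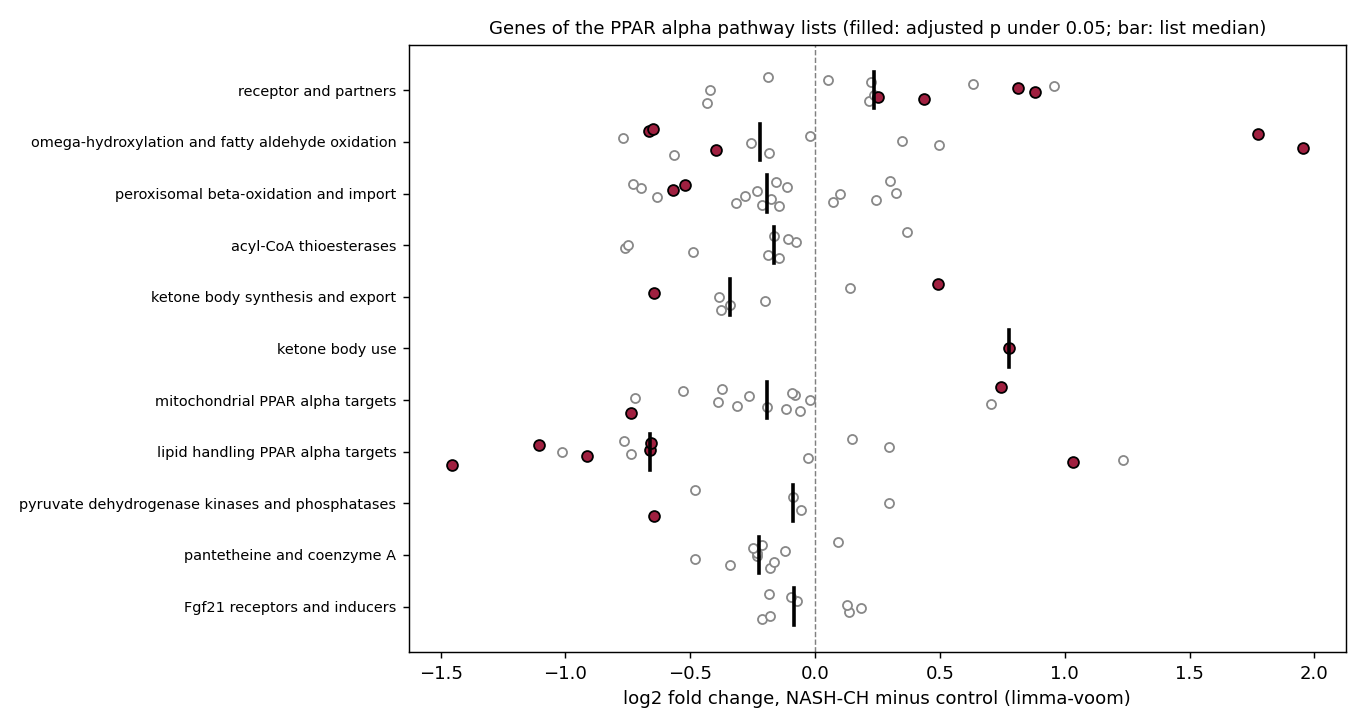
Log2 fold change of each gene of the 11 pathway lists in NASH-CH rats against control from limma-voom. Filled points passed an adjusted p of 0.05, and bars are list medians. The points lie on both sides of 0 in most lists, with 10 filled to the right and 13 to the left, and the lipid handling median is at -0.66.

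No acyl-CoA thioesterase of 9 and no gene of pantetheine and coenzyme A of 10 passed against control in either model, and 1 of 5 pyruvate dehydrogenase kinases and phosphatases fell in NASH-CH rats. Of all genes, 8.38% were higher and 8.6% lower in NASH-CH rats, and 1.58% and 1.54% in NASH rats. Of 10 genes of the fasting and feeding response, Sds and Irs2 rose in NASH-CH rats (2.13 and 1.18, limma-voom adjusted p = 0.0196 and 0.0377), and none fell. The median log2 fold change of that list was 0.34 in NASH and 0.31 in NASH-CH rats. Of 11 clock genes, Per1 alone rose in NASH-CH rats (0.83, limma-voom adjusted p = 0.0194), or 9.09% of the list, near the 8.38% of all genes. The clock list had a median log2 fold change of 0.73 in NASH and 0.83 in NASH-CH rats, beside 0.01 over all genes in both.

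Phenobarbital, which both models received, is known to act through the receptor CAR. Of 5 tested CAR response genes 4 rose in NASH-CH rats, beside 8.38% of all genes, with Cyp2b2 at 4.96 (limma-voom adjusted p = 0.00946), Cyp2c6v1 at 2.14 (adjusted p = 5.5e-05), Ephx1 at 1.31 (adjusted p = 0.00263) and Gadd45b at 1.45 (adjusted p = 0.03). None of the 5 passed in NASH rats against control, where 1.58% of all genes were higher. NASH rats varied widely, with Cyp2b2 from 5.99 to 1105 CPM and Cyp2c6v1 from 1175 to 5554 CPM. NASH-CH rats had 555.5 to 1058 CPM and 4616 to 5865 CPM. Cyp2c6v1 was higher in NASH-CH than in NASH rats (1.21, limma-voom adjusted p = 0.0245), and 1.81% of all genes were higher in that comparison. Phenobarbital ended before the 4 weeks of diet in NASH rats and continued throughout in NASH-CH rats. The part of these lists in the result for Fgf21 was not tested.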

How the data were processed

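Liver RNA of 18 rats was sequenced after a stranded mRNA library preparation. Per the labels and the study's methods, the authors checked and trimmed reads (FastQC, Trim Galore), aligned them with STAR to Rnor_6.0 and estimated counts per gene with RSEM on Ensembl release 95; versions were not given in the sources used here. The deposited values are RSEM expected counts per rat, not normalized. Labels and methods name different RNA extraction kits.

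Expected counts were rounded and filtered (filterByExpr), leaving 12904 of 32623 genes. As in the study's methods, limma-voom (limma 3.58.1) with TMM factors (edgeR 4.0.16) was fitted to all rats with 1 mean per group, Benjamini-Hochberg, threshold 0.05. It was tested on simulated data. Correlations used deviations from group means of log2 CPM (prior count 2) and 100000 permutations, two-sided. Members and lists were chosen with earlier results of these data known. Named from the lists were the preset genes Ppara, Rxra and Cpt1a (other preset genes are not reported here) and, in each comparison with control, up to 12 genes with the largest moderated statistics among those passing at a mean of at least 10 CPM. Likeness searched genes with a mean of at least 5 CPM. Oxct1 was named as the sole gene of its list, and Eci1, Ech1, Crat, Acot2, Hadhb, Angptl4, Slc16a6, Nr1d1 and Arntl were described after their values were seen. Alternatives included edgeR, DESeq2 1.42.0, other scalings and filters, a replicate block and leaving out each rat. No rats of a group had alike counts (smallest chi-square per degree of freedom 30.3). Whether rats sharing a cage were sampled apart was not given, so p-values measure the spread between these rats.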

Additional observations from a re-analysis of the deposited data

Results flagged for a closer look

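Of 21 sets of 6 rats (7 tested rows in 3 groups), 3 held a rat far from the other 5 by Dixon's ratio, the gap to the nearest rat over the whole range of log2 CPM, which was above the 95% critical value for 6 values. About 1 in 20 such sets would do so by chance. Cyp4a1 in control rats had a ratio of 0.651, since control rat 6 was at 143 CPM and the next at 43.9 CPM. Cyp4a2 row B (ENSRNOG00000030154) in control rats had 0.668, since control rat 1 was at 53.4 CPM and the next at 504 CPM. Fgf21 in NASH rats had 0.715, since NASH rat 3 was at 1.66 CPM and the next at 7.97 CPM. The causes were not tested.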

How the results depend on the processing

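No member passed in NASH rats against control or between NASH-CH and NASH rats under any alternative run. In NASH-CH rats against control the count of members passing was 1 and fell to 0 with library size only, with only the 2 groups compared, with sample quality weights, with the replicate block and without both control rat 6 and NASH rat 4 (chosen after seeing the data), where Fgf21 was at -1.41, -1.68, -1.49, -1.70 and -1.60 with adjusted p of 0.068, 0.0602, 0.0737, 0.0537 and 0.0754 (limma-voom). Leaving out 1 rat at a time gave 0 to 1. The replicate block gave 444, 2095 and 540 genes passing in the 3 comparisons, against 403, 2192 and 542 without it. Same-numbered rats deviated together with correlations from -0.12 to 0.17, not over 0.1 in every pair. Between control and NASH-CH rats they ran from 0.03 to 0.12. The labels do not say whether rats of equal number were handled together, and such low correlations cannot settle it.

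Values near 0 changed sign, and none of these passed before or after. With library size only, which put the overall median log2 fold change at 0.229 (NASH) and 0.268 (NASH-CH), Ehhadh was at 0.15 and 0.13, Pdk4 in NASH at 0.18, Cyp4a2 row A in NASH at 0.17 and Vnn1 in NASH-CH at 0.28. With log2 Arntl as a covariate, NASH values were 0.008 for Ehhadh, 0.006 for Pdk4 and 0.037 for Cyp4a2 row A. The block gave 0.015 for Pdk4 in NASH. edgeR and DESeq2 gave -0.093 and -0.102 for Pdk4 in NASH-CH and -0.172 and -0.176 for Cyp4a2 row B in NASH. Sample quality weights gave 0.319 for Vnn1 in NASH-CH and 0.033 for Ehhadh in NASH-CH against NASH. Without control rat 6 and NASH rat 4 these were 0.369 and 0.081, Cyp4a1 in NASH-CH was 0.008 and Cyp4a2 row A in NASH was 0.106. With the 2 Cyp4a2 rows added it was 0.033. Leaving out 1 rat at a time, sign changes ranged over -0.208 to 0.026, -0.156 to 0.081 (Ehhadh, NASH and NASH-CH against NASH), -0.31 to 0.24, -0.21 to 0.35, -0.14 to 0.35 (Pdk4, 3 comparisons), -0.24 to 0.42, -0.521 to 0.004 (Cyp4a1), -0.18 to 0.21 (Cyp4a2 row A), -0.22 to 0.37 (Vnn1, NASH-CH) and -0.48 to 0.55 (Cyp4a2 row B, NASH). Named calls were also lost for Ppara in NASH rats with no filter (0.92, adjusted p = 0.0505) and with the Arntl covariate (0.79, 0.0592), and in NASH-CH rats for Gk with that covariate (-0.6, 0.0631) and for Fabp1 and Cyp4a8 with only the 2 groups (-0.91, 0.0593, and 1.95, 0.0505). Rxra in NASH-CH and Cpt1a in both passed with quality weights (0.4, 1.09 and 1.02). The causes were not tested.

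The count of all genes passing in NASH rats, 403, was 128 to 982 without 1 rat, 1509 with quality weights, 1228 with DESeq2, 652 with edgeR, 865 with library size only, 644 with only the 2 groups compared and 268 with no filter. In NASH-CH rats, 2192, it was 1408 with only the 2 groups and 5495 with no filter. Between them, 542, it was 267 without small non-coding RNA genes, 346 to 591 without 1 rat, 349 with only the 2 groups, 949 with DESeq2 and 2649 with no filter. The planned sum of Cyp4a2 and Cyp4a3 was not run, since no row carried the second symbol. Acot1 was too low to test in any group.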
